A study of Homo sapiens with 3 samples.

Results

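A stretch of the short arm of human chromosome 1 held more listed A-to-G sites than any other 5 Mb tile of that chromosome. It was chosen by this measured density of listed sites. Its members are all positions in the 5 Mb from position 39000000 (GRCh38) that stood in at least 1 of 3 deposited site lists. There were 900 such positions out of 16820 in the whole series, and the rest of chromosome 1 held 2048. The sites carried the names of 48 genes, among them CAP1, PPT1, SMAP2, NFYC, TRIT1, YBX1 and ST3GAL3.

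The cells were THP-1, an established human monocytic leukemia line, transduced with pGK-GFP retrovirus made in 293T cells and harvested as total RNA at day 7. The empty vector group carried no transgene, the ADARcd alone group carried the catalytic domain of the RNA-editing enzyme ADAR, and the DDX41-ADARcd group carried that domain fused to the helicase DDX41. Each group was 1 library, so no comparison between conditions had a replicate check. Each list gives, for every position, the read counts per base in a first library and in a control library: ADARcd alone against the empty vector, DDX41-ADARcd against ADARcd alone, and DDX41-ADARcd against the empty vector. The list of the fusion against the domain alone shares a library with each of the other lists, and the lists against the empty vector share that library.

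HyperTRIBE marks the RNAs near an RNA-binding protein by tethering an ADAR catalytic domain to it. The domain deaminates adenosine to inosine, which is read as guanosine in sequencing, so an edited site appears as A-to-G. DDX41 is a DEAD-box RNA helicase found in the nucleus, with reported roles in pre-mRNA splicing and in nucleic acid sensing, and its gene is mutated in myeloid neoplasms. Reads in introns come mostly from pre-mRNA that has not been spliced, and reads in exons mostly from mature mRNA.

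The bases around the best supported exon sites are shown here because these are the positions with most edited reads in each list. Each is 21 bases of the transcribed strand from GENCODE 29 transcripts (GRCh38), 5′ to 3′, with the edited A in capitals.
PPT1 3′ UTR, chr1:40073240-40073260, minus strand: gctagagtcaActtactctgt
CAP1 3′ UTR, chr1:40071992-40072012, plus strand: actgttgacaAgcgaggcaag
CITED4 3′ UTR, chr1:40861437-40861457, minus strand: ctgtgtgcgcAgggcccggca
YBX1 coding exon, chr1:42682657-42682677, plus strand: gcagcggcgcAgggagcggtg
COL9A2 coding exon, chr1:40309966-40309986, minus strand: ggaaggtcctAggggaccgcc
ST3GAL3 3′ UTR, chr1:43916623-43916643, plus strand: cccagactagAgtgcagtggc
SMAP2 coding exon, chr1:40408667-40408687, plus strand: gggaaatggaAaggcaaaccg
BMP8B 3′ UTR, chr1:39759062-39759082, minus strand: ctgctggaatAgacagagtcc
YBX1 coding exon, chr1:42682707-42682727, plus strand: gccggcggggAcaagaaggtc
The first 5 led the list of ADARcd alone against the empty vector, ST3GAL3 led the exon sites of DDX41-ADARcd against ADARcd alone, and the last 3 had most edited reads in DDX41-ADARcd against the empty vector.

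The PPT1 site at position 40073250 had 27 edited of 1025 reads in ADARcd alone, a level of 2.63% (exact Clopper-Pearson 95% interval 1.74 to 3.81%), and 0 of 144 reads in the empty vector. A count of 0 there allows a level of up to 2.08%, taken as 3 reads of the total. The CAP1 site at 40072002 had 19 of 2192 reads edited (0.867%, 0.523 to 1.35%) and the CITED4 site at 40861447 had 10 of 612 (1.63%, 0.786 to 2.98%), against 0 of 200 and 0 of 47 reads in the empty vector. The YBX1 site at 42682667 had 9 of 674 reads edited and the COL9A2 site at 40309976 had 8 of 445. The edited reads were a small part of the depth at each of these sites, and the empty vector was covered less deeply at each of them. Intervals and limits of this kind cover counting error only, since the lists carry no molecular identifiers.

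Neither the PPT1 nor the CAP1 position was in the fusion lists, which name a position only where the fusion had an edited read and the control had none. The 3 sites with most edited reads in DDX41-ADARcd against the empty vector were in BMP8B (3 of 137 reads), SMAP2 (3 of 359) and YBX1 at 42682717 (3 of 869). BMP8B encodes a ligand of the bone morphogenetic protein family, and YBX1 a Y-box protein that binds RNA and DNA. These sites were also listed against ADARcd alone, where 0 of 193, 0 of 649 and 0 of 1028 reads were edited. The most edited reads of DDX41-ADARcd against ADARcd alone were at an NFYC intron position, 40760073 (4 of 13 against 0 of 12), at the ST3GAL3 site, 43916633 (4 of 14 against 0 of 21), and at a PPIH intron position, 42671266 (3 of 7 against 0 of 13). NFYC is a subunit of the CCAAT-binding factor NF-Y, ST3GAL3 a sialyltransferase of the Golgi, and PPIH a cyclophilin of the spliceosome. No sequence is printed for the intron sites, since the transcripts used here do not span them.

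The lists placed 392 sites in the stretch for ADARcd alone against the empty vector, 508 for DDX41-ADARcd against ADARcd alone, and 234 for DDX41-ADARcd against the empty vector. These were 33.8%, 28.4% and 37.1% of the sites of chromosome 1, and 6.11%, 4.88% and 6.66% of each list. The next densest tile of chromosome 1 held 76, 138 and 56. The tiles on either side held 14 and 27 sites, 41 and 50 sites, and 6 and 16 sites in the same order of lists. These counts describe the choice of the stretch and were not tested.

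At the edges, the last site before the stretch (38991421) and the first one inside it (39004232) both lay in AKIRIN1, with 1 edited of 8 and 1 of 24 DDX41-ADARcd reads. The last site inside lay in ATP6V0B (43976125, 1 of 107 reads), and the first after it in RNF220 (44649672, 1 of 30). The density was uneven within the stretch. The megabase from 40000000, with CAP1, PPT1, SMAP2 and NFYC, held 247, 285 and 150 of the sites. The next megabase held 4, 16 and 4, and no site of any list lay between 41582124 and 42177736, a gap of 595612 bases inside and beside HIVEP3.

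**Figure D1:**
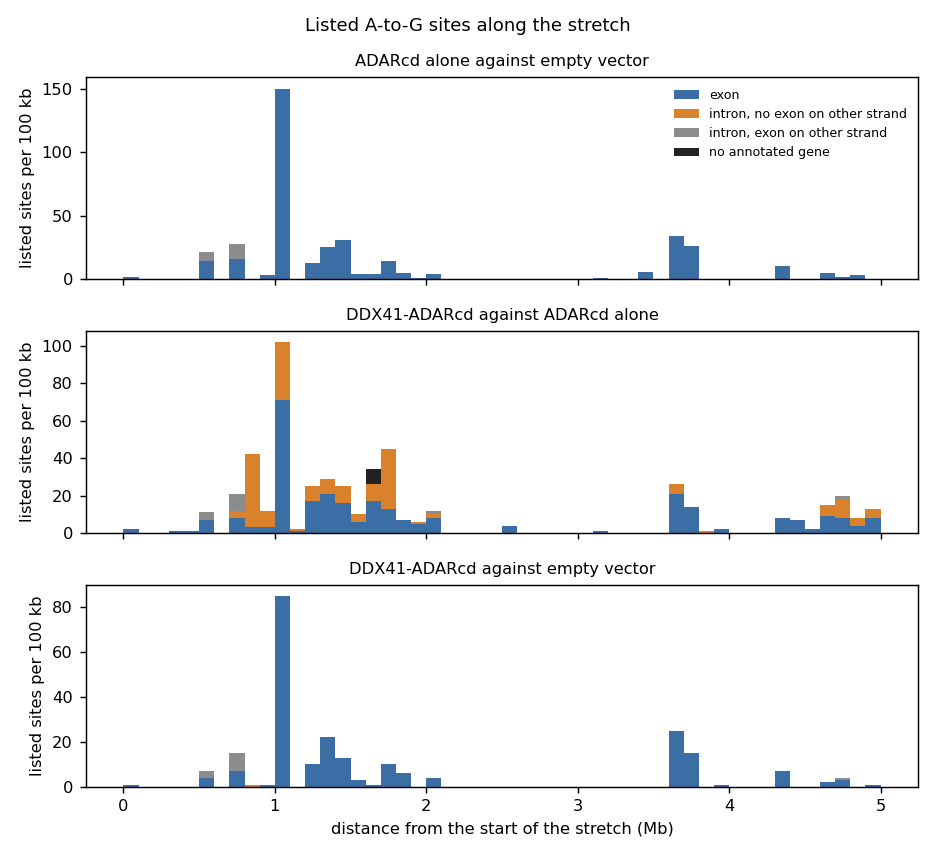
Number of listed A-to-G sites per 100 kb (vertical axis) against the distance in Mb from the start of the stretch (horizontal axis), for the 3 lists. Colours separate exon sites, intron sites and intron sites that lie in an exon of a gene on the other strand: the tall bar at 1 Mb holds CAP1 and PPT1, and orange intron sites appear almost only in DDX41-ADARcd against ADARcd alone.

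Median read depth over all listed sites was higher in the stretch than over the rest of chromosome 1 in all 3 lists, but in DDX41-ADARcd against ADARcd alone this turned with the sites counted. In ADARcd alone against the empty vector the median site had 754 ADARcd reads (order-statistic 95% interval 596 to 1004, n = 392 sites), against 219 (203 to 236, n = 767) over the rest of the chromosome, a ratio of 3.44. In DDX41-ADARcd against the empty vector the medians were 527.5 fusion reads (359 to 705, n = 234) and 149 (135 to 168, n = 397), a ratio of 3.54. The list of the fusion against the domain alone had 49.5 (33 to 63, n = 508) and 29 (27 to 32, n = 1281), a ratio of 1.71. Among its sites with 2 or more edited reads the order of the medians reversed, with 16.5 against 24 reads, a ratio of 0.688. The intervals of the medians allow a ratio from 0.375 to 2.94, so the order is not settled there. The control libraries showed the same order: 84.5 against 21, 93 against 22, and 72.5 against 45 reads. Sites of 1 gene share a transcript and a library, so sites are not replicates and no p is given for these differences. A position also needs reads to be listed at all, so depth is not free of the choice of a dense stretch.

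Much of this depth lay in 3 genes. CAP1, an adenylyl cyclase-associated protein that turns over actin filaments, PPT1, a lysosomal palmitoyl-protein thioesterase, and YBX1 held 52.0%, 26.8% and 52.1% of the sites in the order of lists above. Without them, the ratio of the stretch to the rest of chromosome 1 was 1.19 (0.903 to 1.51) for ADARcd alone against the empty vector. It was 1.26 (0.815 to 1.76) for DDX41-ADARcd against the empty vector, and 0.759 (0.438 to 1.44) for DDX41-ADARcd against ADARcd alone. All of these intervals span 1. With each gene counted once, it was 1.33 and 1.36 in the lists against the empty vector, and 1.96 in DDX41-ADARcd against ADARcd alone. Without CAP1 alone it was 2.25 and 2.07 in the lists against the empty vector, and 1.5 in DDX41-ADARcd against ADARcd alone.

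At the sites of ADARcd alone against the empty vector, all of them exonic in these genes, ADARcd alone had between 1298 and 3648 reads in CAP1, between 599 and 2929 in YBX1, and between 552 and 1282 in PPT1. The genes with most sites elsewhere on chromosome 1 in this list were shallower: LYST, a regulator of lysosomal traffic, had 75 to 354 reads at its 42 sites, HNRNPU, a nuclear RNA-binding protein, 169 to 628 at 33, and NUCKS1, a chromatin protein, 75 to 375 at 31. The ranges of YBX1 and PPT1 overlapped that of HNRNPU at their low ends, and the range of CAP1 did not. In the fusion lists the genes with most sites elsewhere also included MEF2D, a transcription factor, with 17 exon and 12 intron sites and a median of 15 fusion reads against ADARcd alone. HFM1, a helicase of meiosis, had 24 sites against the empty vector, all in introns, with 213 to 725 fusion reads and 284 to 489 empty vector reads.

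The difference in depth was large at the exon sites and small at the intron sites as listed. In DDX41-ADARcd against ADARcd alone, exon sites had a median of 230 fusion reads in the stretch (n = 295) and 31 elsewhere on chromosome 1 (n = 1146), a ratio of 7.42. In the other lists exon sites had medians of 888 against 216 and 615 against 139. Intron sites outside exons of the other strand had 10 fusion reads at the median in the stretch (9 to 10, n = 188) and 8 elsewhere (6 to 11, n = 107), with 16 and 15 reads in ADARcd alone. The intervals of those intron medians overlap. The 107 sites elsewhere include 24 in HFM1 with 213 to 731 fusion reads, and the median without HFM1 was not computed.

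**Figure D2:**
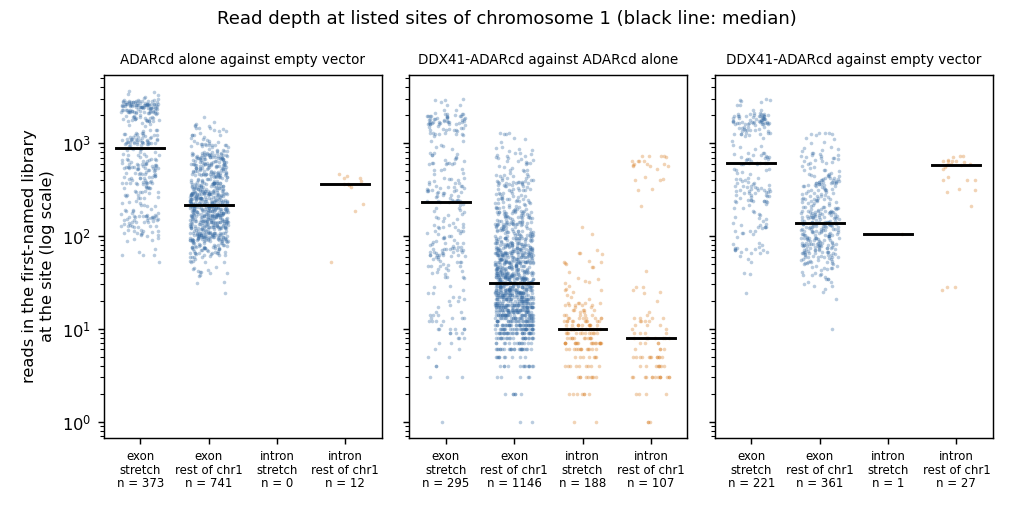
Reads in the first-named library at each listed site of chromosome 1 (log scale), for exon sites and for intron sites outside exons of the other strand, in the stretch and over the rest of the chromosome, with the median as a black line. Exon sites of the stretch sit higher than those of the rest in every list, while the intron sites of DDX41-ADARcd against ADARcd alone have medians of 10 and 8 reads.

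The share of sites in introns set the list of DDX41-ADARcd against ADARcd alone apart. There, 205 of 508 sites of the stretch were intronic, 40.4% (Clopper-Pearson 36.1 to 44.8%), against 128 of 1281, 9.99% (8.40 to 11.8%), over the rest of chromosome 1. The difference was 30.4 percentage points. With 20 or more reads in both libraries it was 8.75 points (14.5% against 5.73%). For the 3 Mb from position 40000000 it was 17.5 points (32.8% against 15.2%), but there the rest of the chromosome included the remainder of the stretch. By the region given in the deposited list itself the shares were 43.1% and 10.5%. In ADARcd alone against the empty vector the shares were 4.85% (19 of 392) and 2.999% (23 of 767), and in DDX41-ADARcd against the empty vector 5.56% (13 of 234) and 8.56% (34 of 397), with overlapping intervals in both. Over all chromosomes, 28.5% of the 720 intron sites of DDX41-ADARcd against ADARcd alone lay in this stretch, which held 4.88% of all sites of the list.

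Most of the few intron sites in the lists against the empty vector lay in an exon of a gene on the opposite strand: 19 of 19 and 12 of 13. They were named for PPIE, a spliceosomal cyclophilin whose introns overlap exons of BMP8B, and for the uncharacterised LOC101929516, which overlaps exons of PABPC4, a cytoplasmic poly(A)-binding protein, with 1 more in KDM4A-AS1 across from KDM4A. The labels do not say whether the libraries keep the strand, so reads of such gene pairs cannot be told apart. Only 17 of the 205 in DDX41-ADARcd against ADARcd alone were of this kind. Without them, 188 sites remained in the stretch (37.0% of its sites) against 107 over the rest of chromosome 1 (8.35%). The same step left 0 sites of the stretch in ADARcd alone against the empty vector and 1 in DDX41-ADARcd against the empty vector, a TRIT1 position. Over the rest of chromosome 1 it left 12 of 767 sites (1.56%, 0.811 to 2.72%) and 27 of 397 (6.80%, 4.53 to 9.74%), beside 0 of 392 (0 to 0.937%) and 1 of 234 (0.427%, 0.0108 to 2.36%) in the stretch. In DDX41-ADARcd against the empty vector the share was thus lower in the stretch than elsewhere, and 24 of those 27 sites elsewhere were in HFM1.

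**Figure D3:**
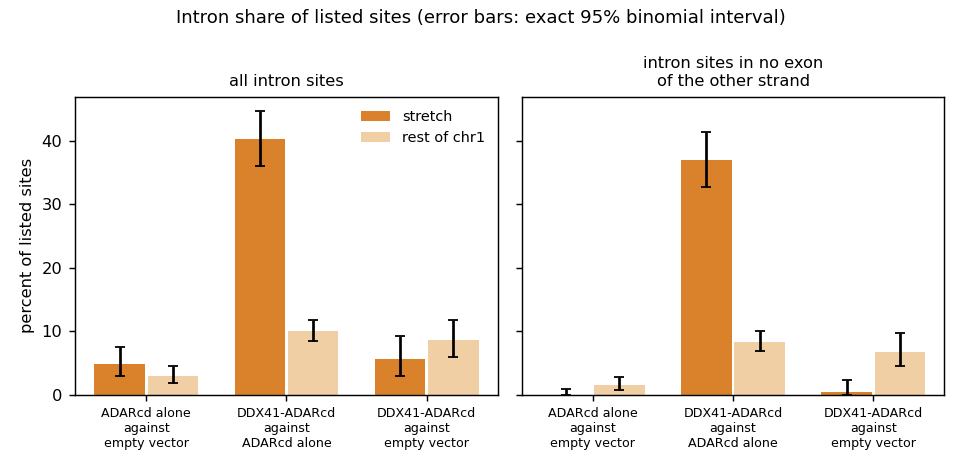
Percent of listed sites that lie in introns, in the stretch and over the rest of chromosome 1, for the 3 lists, before (left) and after (right) leaving out sites in an exon of the other strand. Bars start at 0 and error bars are exact 95% binomial intervals: DDX41-ADARcd against ADARcd alone stands at 40.4% and 37.0% in the stretch, against 9.99% and 8.35%.

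The intron sites were shallow beside the depth that listing asks for. Every listed position had 10 or more control reads. At the median over the listed sites of the stretch, nearly all of them exonic, ADARcd alone had 8.73 times the reads of the empty vector. If that ratio held in introns, the 16 ADARcd reads of the median intron site would correspond to 1.83 empty vector reads. At this ratio 6 of the 188 intron sites would reach 10 empty vector reads. The ratio was not the same everywhere: at the 12 intron sites of the rest of chromosome 1 it was 0.993. HFM1 held 11 of them, from 91387330 to 91387503, with medians of 363 ADARcd and 384 empty vector reads. The remaining site, in TBCE, had 53 and 10 reads, so the value elsewhere rests mostly on 1 short block. The empty vector depth at the other 187 intron sites of the stretch is not in the lists, so the part of depth in their absence from the lists against the empty vector was not tested.

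The intron sites were spread over many genes of the stretch. In DDX41-ADARcd against ADARcd alone, 20 of 44 genes with an exon site also had an intron site outside exons of the other strand, 45.5% (30.4 to 61.2%), against 17 of 464 genes, 3.66% (2.15 to 5.80%), over the rest of chromosome 1. These intervals treat genes as separate, which neighbouring genes of 1 stretch need not be. NFYC held 41 of the 188, TRIT1, a transferase that modifies tRNA, 39, CAP1 31, SMAP2, a GTPase-activating protein of vesicle traffic, 16, and ST3GAL3 14. NFYC, TRIT1 and CAP1 together held 59.0%. MFSD2A, a transporter of lysophospholipids, and the zinc finger gene RLF had 9 each, KDM4A, a histone demethylase, had 7, and YBX1 had 2. PPT1 had none, although it had 22 exon sites in this list.

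Per 10 kb of intron, CAP1 had 10.8 sites, TRIT1 10.0, MFSD2A 8.29, NFYC 5.54, SMAP2 2.14 and ST3GAL3 0.680. The last value reflects introns of 205867 bases in all, beside 28603 in CAP1. Over the 11 genes of the stretch with 3 or more such sites, an exon site and an intron length in GENCODE 29, the median was 2.14 per 10 kb, and over the 7 such genes of the rest of chromosome 1 it was 1.43. Elsewhere, GFI1, a transcriptional repressor of blood cell development, reached 9.08 and LYST, with 29 intron sites, 1.43. The highest rates were thus 10.8 inside and 9.08 outside the stretch. Genes entered this comparison by having 3 or more intron sites, so it cannot tell whether such rates differ between the stretch and the rest.

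The depth of introns against exons differed between the genes. In CAP1 the median exon site had 1677 fusion reads and the median intron site 14 (range 6 to 26), an exon-to-intron ratio of 119.8. In SMAP2 it was 345 against 5.5 reads (ratio 62.7), in NFYC 217 against 9 (24.1), in RLF 64.5 against 5 (12.9), in KDM4A 65.5 against 9 (7.28), in MFSD2A 73 against 11 (6.64) and in ST3GAL3 13.5 against 4.5 (3). TRIT1 was lowest of the stretch, with 54 reads at its 3 exon sites and 29 at its intron sites, a ratio of 1.86. In ADARcd alone the TRIT1 ratio was 1.64 and that of CAP1 116.5, so TRIT1 was lowest and CAP1 highest of the 12 genes in both libraries. In ADARcd alone TRIT1 was nearly level with LOC101929592 (1.67, with 1 exon site) and ST3GAL3 (1.69). Over the 8 comparison genes of chromosome 1 the ratio ran from 0.5 in TBCE, with 1 exon site, to 25.5 in CHI3L1. Their median was 10.4, and over the 12 of the stretch the median was 11.5.

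TRIT1 lies on the minus strand at 39838110 to 39883511. Its intron sites fell into a deep and a shallow block. The 27 sites from 39863110 to 39869654 had 11 to 124 fusion reads (median 41) and 15 to 164 ADARcd reads. The 12 sites from 39871468 to 39882590 had 6 to 17 fusion reads (median 11) and 12 to 41 ADARcd reads. The deep block lies on both sides of an exon at 39864710 to 39865667 that GENCODE 29 gives only to a transcript of TRIT1 marked for nonsense-mediated decay. TRIT1 also held 23 of the 27 intron sites of the stretch with 20 or more fusion reads, and CAP1 the other 4. The division into blocks was made after the values were seen. Without TRIT1, the 149 other intron sites had 1 to 26 fusion reads, with a median of 8.

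**Figure D4:**
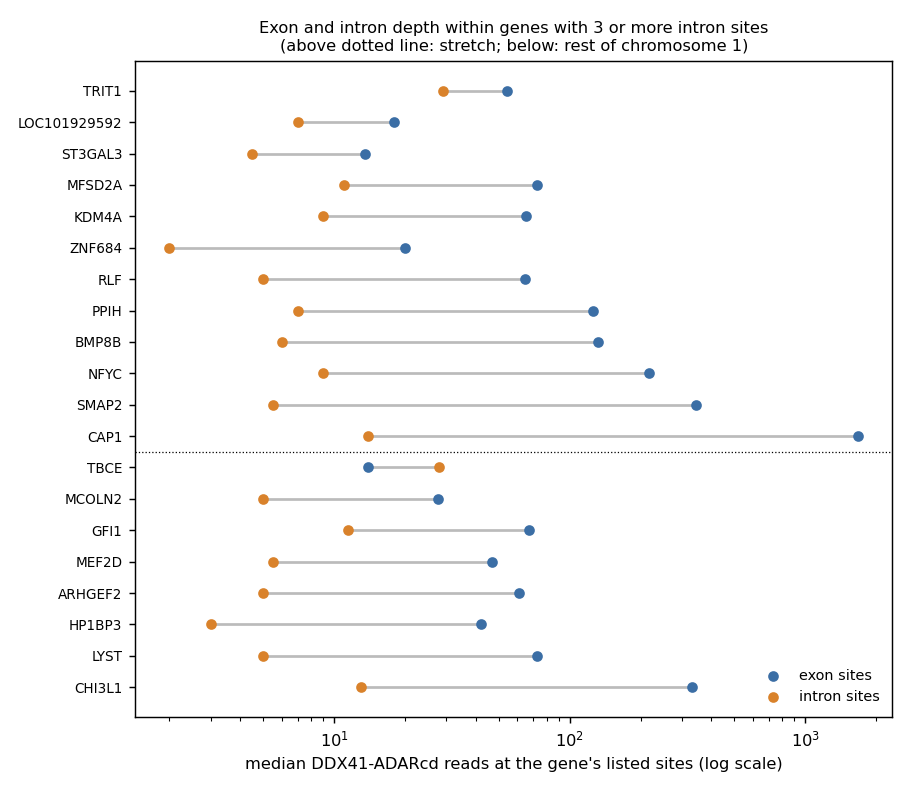
Median DDX41-ADARcd reads (log scale) at the exon sites and the intron sites of each gene with 3 or more intron sites and an exon site in DDX41-ADARcd against ADARcd alone. Genes of the stretch stand above the dotted line, from TRIT1 (54 and 29 reads) to CAP1 (1677 and 14), and genes of the rest of chromosome 1 below it.

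Intron sites of the stretch tended to lie close together. Of the 188, 107 (56.9%, 49.5 to 64.1%) had another within 100 bases, against 69 of 107 (64.5%, 54.6 to 73.5%) over the rest of chromosome 1. Of those elsewhere, 24 lay in HFM1 from 91387290 to 91387530, with 213 to 731 fusion reads, so the value elsewhere leans on 1 short block. The sites of the stretch formed 20 groups of 3 or more sites, 6 of them in NFYC, 5 in TRIT1 and 4 in CAP1. The group with most sites was in MFSD2A, where 7 sites lay from 39961987 to 39962075 with 10 to 12 fusion reads each and 10 edited reads in all. In BMP8B, 3 sites within 18 bases (39783810 to 39783827) each had 2 edited of 6 or 7 reads. Sites this close can be read from the same molecules, so they are not separate observations.

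Most listed sites of the stretch rested on 1 edited read: 74.7% in ADARcd alone against the empty vector, 81.5% in DDX41-ADARcd against ADARcd alone, and 85.5% in DDX41-ADARcd against the empty vector. Over the rest of chromosome 1 the shares were 78.2%, 82.8% and 81.4%. Of the 188 intron sites, 143 had 1 edited read, 39 had 2, 5 had 3 and 1 had 4. With 1 edited read, the editing level of a site is set by its depth. The median level in the stretch was 0.171% in ADARcd alone against the empty vector, 2.41% in DDX41-ADARcd against ADARcd alone and 0.199% in DDX41-ADARcd against the empty vector. Over the rest of chromosome 1 it was 0.521%, 3.704% and 0.726%. The lower levels stood where the depth was higher. Without CAP1, PPT1 and YBX1 the level of the stretch in ADARcd alone against the empty vector was 1.03 times that of the rest.

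Summed over sites, edited reads made up 1.32, 3.44 and 1.34 per 1000 reads of the first library in the stretch, and 5.24, 13.3 and 4.91 over the rest of chromosome 1. Reads with either of the other wrong bases, which ADAR does not make, were 1.11, 1.14 and 1.16 per 1000 at the same positions of the stretch, and 1.16, 3.20 and 3.13 per 1000 over the rest of chromosome 1. These sums weigh each site by its depth, so CAP1, PPT1 and YBX1 dominate those of the stretch, and every site was listed for having an edited read. Whether single listed reads are editing or sequencing error was not tested.

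**Figure D5:**
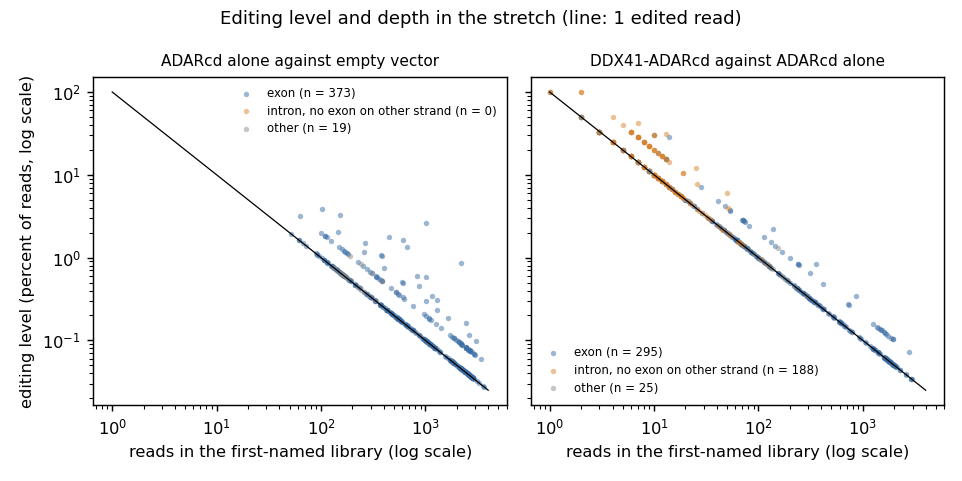
Editing level (percent of reads with the edited base, log scale) against reads in the first-named library (log scale) for every site of the stretch, in ADARcd alone against the empty vector and in DDX41-ADARcd against ADARcd alone. The line marks 1 edited read, on which 74.7% and 81.5% of the sites fall, and the intron sites crowd at its shallow end.

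By two-sided Fisher's exact tests of single sites, with Benjamini-Hochberg adjustment over each whole table, no site of the stretch passed an adjusted p of 0.05. Such a test compares 2 libraries, not 2 conditions. In ADARcd alone against the empty vector, 0 of 392 sites passed, beside 0.203% of the 6412 sites of the whole table. An unadjusted p under 0.05 by Fisher's exact test was reached by 0 of the 392, beside 35 of the 6412. The smallest p was 0.0667, at the PPT1 site. In DDX41-ADARcd against ADARcd alone, 0 of 419 positions with 10 or more reads in both libraries passed, beside 0.282% of 9227. That table adds positions at which each of these libraries was listed when set against the empty vector, 28 of them in the stretch. It leaves out 117 positions of the stretch with fewer reads. The called positions were all lower in the fusion. Positions of the list itself had 0 edited reads in ADARcd alone and could not be lower, so these calls came from the added positions. In DDX41-ADARcd against the empty vector, 0 of 234 sites passed, beside 0% of 3512 in the whole table, where 3 had an unadjusted p under 0.05. In the lists against the empty vector, the control had 0 edited reads and, in the stretch, fewer reads than the first library. A site with few edited reads could hardly reach a small p there, so no conclusion is drawn from those 0 counts.

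In DDX41-ADARcd against ADARcd alone, 79 of 9227 tested positions had an unadjusted p under 0.05 by Fisher's exact test, in either direction. They include the 26 called positions, all lower in the fusion. In the stretch, 5 of 419 tested positions had such a p, each higher in the fusion. No test compared these shares, so the 5 are not read as particular to the stretch. All 5 had an adjusted p of 0.560 in Fisher's exact test. By this exact test they were the ST3GAL3 site (p = 0.0191), TRIT1 intron positions 39868868 (3 of 25 against 0 of 51, p = 0.0327) and 39866269 (3 of 50 against 0 of 84, p = 0.04999), the NFYC intron position 40695092 (3 of 10 against 0 of 18, p = 0.0366) and the SMAP2 site (p = 0.0449). Listing asks for 0 edited reads in the control, so small p values in this direction are favoured by the way the positions were chosen.

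Among cytoskeletal and lysosomal genes, CAP1 and PPT1 are neighbours on opposite strands, and their last exons overlap. CAP1 had 90, 80 and 58 sites and PPT1 60, 22 and 27 in the order of lists above. Of the CAP1 sites, 40, 14 and 17 lay where a PPT1 exon overlaps, so the gene of those reads is uncertain. MACF1, a linker of actin and microtubules, had sites only in DDX41-ADARcd against ADARcd alone, and SVBP had none. As a share of exonic A bases, a measure per length, YBX1 was highest of the 3 with 11.1%, 6.57% and 7.60% listed, then CAP1 with 9.43%, 5.14% and 6.08%, and PPT1 with 4.51%, 1.65% and 2.03%. In the first of those lists NUCKS1 had 1.64%, LYST 0.699% and HNRNPU 0.476%.

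Of 14 transcription factor and chromatin genes of the stretch, 7, 12 and 6 had sites in the order of lists above. YBX1 had 54, 34 and 37 sites and NFYC 14, 58 and 10. RLF had 6, 19 and 6, KDM4A 4, 17 and 5, and ZFP69, a zinc finger gene, 2, 7 and 4. In DDX41-ADARcd against ADARcd alone the group had 65 intron sites, of which NFYC had 41 of its 58 sites, RLF 9 of 19 and KDM4A 7 of 17. MYCL, a relative of MYC, and HEYL, an effector of Notch signalling, had none. CITED4, a coactivator that binds CBP and p300, had 5, 7 and 6 sites, all in exons. Of the 19 sites named for NFYC-AS1 in DDX41-ADARcd against ADARcd alone, 8 lay in no gene of GENCODE 29.

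Of 6 genes for RNA binding, RNA modification and ribosome biogenesis, 4, 5 and 5 had sites. PABPC4 had 13, 6 and 3, all in exons, and its position 39572548 had 5 of 152 ADARcd reads edited against 0 of 16 in the empty vector. PPIE had 14, 12 and 9, of which 12, 9 and 8 lay in BMP8B exons. BMP8B itself had 14, 9 and 6. TRIT1 had none in ADARcd alone against the empty vector, 42 in DDX41-ADARcd against ADARcd alone and 1 in DDX41-ADARcd against the empty vector. EBNA1BP2, a ribosome biogenesis factor, had none.

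Of 5 traffic and transporter genes, SMAP2 had 31, 27 and 12 sites and MFSD2A 3, 12 and 1. At the sites of ADARcd alone against the empty vector, SMAP2 had 307 to 676 ADARcd reads, below every CAP1 site of that list. IPO13, a nuclear transport receptor, had none. Of 4 glycosylation and protein-processing genes, ST3GAL3 had 3, 24 and 0 sites and ZMPSTE24, the protease that matures lamin A, 7, 8 and 4. ST3GAL3 was the shallowest of the 7 genes named at the start, with a median of 5 fusion reads over its 24 sites.

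Metabolic genes had few sites: CTPS1, which makes CTP, had 3, 9 and 3, and the 6 sites of PPCS, an enzyme of coenzyme A synthesis, stood only in ADARcd alone against the empty vector and were the same positions as those named for CCDC30. CDC20, an activator of the anaphase-promoting complex, had 9, 6 and 7, and the exonuclease gene EXO5 4, 6 and 3. The collagen gene COL9A2 had 23, 18 and 19 sites, all in exons, at medians of 401, 272 and 276 reads. Among genes for cell surface receptors, the receptor phosphatase PTPRF had 1, 6 and 0 sites, and TIE1 and ERMAP had no listed site. A gene without listed sites may have been too shallow to be listed, which these files cannot show.

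Of the 48 genes, 24 had sites in all 3 lists and 12 only in DDX41-ADARcd against ADARcd alone. That list is the longest, with 10407 sites beside 6413 and 3516 in the lists against the empty vector. No such gene count was made outside the stretch, so none of this is read as particular to it. At the level of positions, 28 were listed for both ADARcd alone and DDX41-ADARcd against the empty vector, which is 7.14% of the first list and 12.0% of the other. Over the rest of chromosome 1 the shares were 5.35% and 10.3%. All 28 were in exons, 10 of them in CAP1, 7 in YBX1 and 6 in PPT1, and 18 had 1 edited read in each library. At these positions the median level was 0.0811% for the domain alone and 0.0917% for the fusion, and none passed Fisher's exact test between those libraries. The fusion lists shared 206 positions of the stretch, 40.6% of those against ADARcd alone and 88.0% of those against the empty vector. Over the rest of chromosome 1 these shares were 27.8% and 89.7%. Here both counts come from the same fusion reads.

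The base before the edited A was read from the transcripts at exon sites. ADAR is known to disfavour a G before the edited A. In ADARcd alone against the empty vector, G came before the edited A at 23.7% of sites in the stretch (19.4 to 28.3%, n = 372) and at 27.5% elsewhere (24.4 to 30.9%, n = 737), and C at 30.1% (25.5 to 35.05%) and 23.5% (20.5 to 26.7%). Among sites with 3 or more edited reads, G came before at 3 of 26 in the stretch and 4 of 39 elsewhere in this list, at 2 of 5 and 0 of 10 in the fusion against the domain alone, and at 1 of 3 and 0 of 7 in the fusion against the empty vector. The intervals of the stretch and the rest overlap in each of these. For the fusion against the domain alone it was 24.5% (19.7 to 29.8%, n = 294) and 29.6% (27.0 to 32.4%, n = 1138).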

How the data were processed

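Each of the 3 deposited lists holds unnormalized read counts, per the file headers: at every A-to-G position, 1 count per base and a total, in each of 2 libraries. The build mm10 (mouse) and the tools STAR 2.5, CASAVA 1.4 and FastQC 0.11.7 stand in the submitters' processing notes, without roles. The coordinates fit human GRCh38: the transcript base was A at 373 of 373, 294 of 295 and 221 of 221 exon sites of the stretch. The site caller is not given in the sources used here.

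List columns name no library. A list's title gives a pair of libraries: here the first is read as the edited one, and gDNA/wtRNA columns belong to the other, its control. Totals at positions shared between lists were equal at 402 of 402 (empty vector) and 3114 of 3114 (DDX41-ADARcd), of which 28 and 206 lay in the stretch. Every listed position had 1 or more edited reads in the first library, and 0 edited and at least 10 reads in the control.

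Entries were joined to 1 row per position and placed in GENCODE 29 on the strand of the A, in the order coding exon, UTR, non-coding exon, intron. GENCODE held 46 of the 48 gene names. Medians have order-statistic 95% intervals and shares exact Clopper-Pearson ones. Fisher's exact test (SciPy 1.17.1) with Benjamini-Hochberg adjustment ran over whole tables, at 10 or more reads in both libraries, and was tested on simulated data. Only counting error is covered, and with 1 library per group nothing measures biological spread. Named genes are the 7 of the definition and those with 5 or more sites in any list, named sites the 3 with most edited reads or smallest p per list, and comparison genes the 3 per list with most sites elsewhere on chromosome 1. Others (further sites with several edited reads, GFI1, TBCE, CHI3L1, the TRIT1 blocks) were chosen after their values were seen. The members and gene groups were chosen with earlier results of these data known.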

Additional observations from a re-analysis of the deposited data

How the results depend on the processing

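No paired analysis was possible because each group is 1 library, and for the same reason leaving out a replicate was not run. Of the values recomputed under other settings, 82 stayed within the 95% interval of the reported value (counts within 1.5 times), 38 moved outside it and 3 reversed. Further values changed sign or order without being counted among the 3. The cause was not tested unless the setting itself shows it. The settings without CAP1, PPT1 and YBX1, with exon sites only, and without intron sites in exons of the other strand were chosen after seeing the data. Values below are in the order ADARcd alone against the empty vector, DDX41-ADARcd against ADARcd alone, DDX41-ADARcd against the empty vector, named first, second and last list.

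The depth ratio of the stretch to the rest of chromosome 1 (3.44, 1.71 and 3.54) became 5.07 and 2.48 in the first and second list for the 3 Mb from position 40000000. It became 1.33 and 1.36 in the first and last list with each gene counted once, and 2.25 and 2.07 without CAP1. Without CAP1, PPT1 and YBX1 it was 1.19 and 1.26, and reversed to 0.759 in the second list. The second list also gave 3.898 with 20 or more reads in both libraries, 7.42 for exon sites only, and reversed to 0.688 with 2 or more edited reads. The intervals at 0.759 and 0.688, which are 0.438 to 1.44 and 0.375 to 2.94, both span 1.

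The difference in intron share (1.85, 30.4 and -3.01 percentage points) became -4.99, 17.5 and -10.8 points for the 3 Mb from position 40000000, and -3.38, 8.75 and -10.7 with 20 or more reads in both libraries. Under both settings the sign changed in the first list. All 19 intron sites of the stretch in that list lay in the megabase from 39000000. The 3 Mb setting counts them with the rest. With each gene counted once it was 23.2 in the second list and 7.996 in the last, where the sign changed. Against all other chromosomes it was 35.8 and 3.79 in those lists, again with a change of sign in the last. Without intron sites in exons of the other strand it was -1.59 in the first list, where the sign changed. With 2 or more edited reads it was -13.5 in the last.

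The ratio of editing levels (0.327, 0.651 and 0.274) became 0.187 and 0.397 in the first and second list for the 3 Mb from position 40000000. With each gene counted once it was 0.723 and 0.732 in the first and last list, and 0.478 and 0.464 without CAP1. Without CAP1, PPT1 and YBX1 it reversed to 1.03 in the first list and was 1.33 and 0.870 in the others. In the second list it was 0.277 with 20 or more reads, 1.58 with 2 or more edited reads and 0.151 for exon sites only. At 1.33 and 1.58 the order of the stretch and the rest changed in the second list too. The intervals at 1.03, 1.33 and 1.58, which are 0.774 to 1.26, 0.735 to 2.07 and 0.340 to 2.67, all span 1. The relative read ratio between libraries (0.988, 0.980 and 0.940) became 1.13 and 1.11 with each gene counted once and 1.19 and 1.14 without CAP1, PPT1 and YBX1, in the first and last list. In each of these the order changed as well. With reads halved, 7 rather than 13 sites of the whole first table passed Fisher's exact test, and 0 of the stretch under any setting.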
